A study of Sus scrofa with 12 samples.

Results

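The motile cilia genes are the genes whose products build, assemble or regulate the beating cilium. They were taken by name from a table of normalized expression in the uterus of newborn pigs. A row was a member if its gene symbol began with DNAH, DNAI, DNAL, DNAAF, TEKT, RSPH, IFT or SPAG followed by a digit, or was 1 of 16 further symbols, and if its value was above 1, the lowest value in the table, in at least 4 of the 12 libraries. Of the 20390 rows of the table, 24 met the rule by symbol, and all 24 passed the limit on low values. The table lists 13716 of its rows under placeholder names beginning with LOC. Among these, 35 carry a later gene name that also meets the rule. Of them 33 passed the limit, the entries named DNAH14 and TEKT5 being the exceptions. They are described here as placeholder entries, apart from the 24. Of the 16 symbols given in full, FOXJ1, HYDIN, CCDC39 and CCDC40 were found by symbol, CAPS, CCDC114, LRRC6, RFX2, TPPP3 and ZMYND10 as placeholder entries, and the other 6 (CCDC113, DRC1, MCIDAS, PIFO, RFX3 and ROPN1L) were not analysed here.

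The study sequenced uterine RNA of 12 crossbred gilts (young female pigs; Landrace, Yorkshire, Duroc and Hampshire), 4 in each of 3 groups. The PND0 gilts were killed within 1 h of birth. For 48 h, PND2N gilts were left to nurse while PND2R gilts received a commercial replacer of milk, and both groups gave their uteri at 50 h of age. Both day 2 groups were compared with the same PND0 libraries, so their changes from birth share those controls, and age and 48 h of feeding cannot be told apart in either change. The uteri were trimmed of connective tissue and used whole, so a value reflects every cell type present, and fewer cells of a type and less RNA per cell cannot be told apart.

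A motile cilium beats by means of dynein motors, carried as outer and inner arms on a ring of microtubule doublets around a central pair. Radial spokes, ruler proteins and nexin links set the place and the timing of the motors, dynein arms are put together in the cytoplasm by assembly factors, and intraflagellar transport (IFT) trains carry parts in and out. The transcription factor FOXJ1 switches on much of this programme. In the female tract, multiciliated cells are typical of the oviduct and also occur in the uterine epithelium of many mammals, whereas IFT also builds the single immotile primary cilium that most cell types carry.

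Column totals of the normalized values lay between 26534074 and 29544130 per library. Earlier results of these data had shown that PND2N 1, PND2R 2 and PND2R 3 stand apart by high DES (desmin, a muscle filament protein), at 29022 to 40049 against 7460 to 23440 in the other 9 libraries. Among other smooth muscle markers, CNN1 was also high there (36300 to 44860 against 9586 to 23910). MYLK was lowest there, at 792 to 1366 against 3182 to 14120. These 3 libraries also had the highest column totals. Their shares of rows at the lowest value were the largest (21.3% to 22.1% against 17.8% to 20.4%). High DES is thus only a label for them, and what sets them apart was not tested. In those 3 libraries FOXJ1, IFT122, IFT52 and SPAG1 were higher than in all other 9, and DNAH7, IFT80 and SPAG17 were lower than in all other 9. That is 16.7% and 12.5% of the 24 members, where 15.8% and 21.2% of all genes were so placed. For members called in PND2R the fit with these libraries left out is given beside the result, and without them PND2R holds 2 animals. The uterine marker list was present, with 14 of its 15 matched genes above the limit, and its summed level spanned 43240 to 60840 at birth, 47280 to 61500 in nursed and 55540 to 65030 in replacer-fed gilts.

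**Figure D1:**
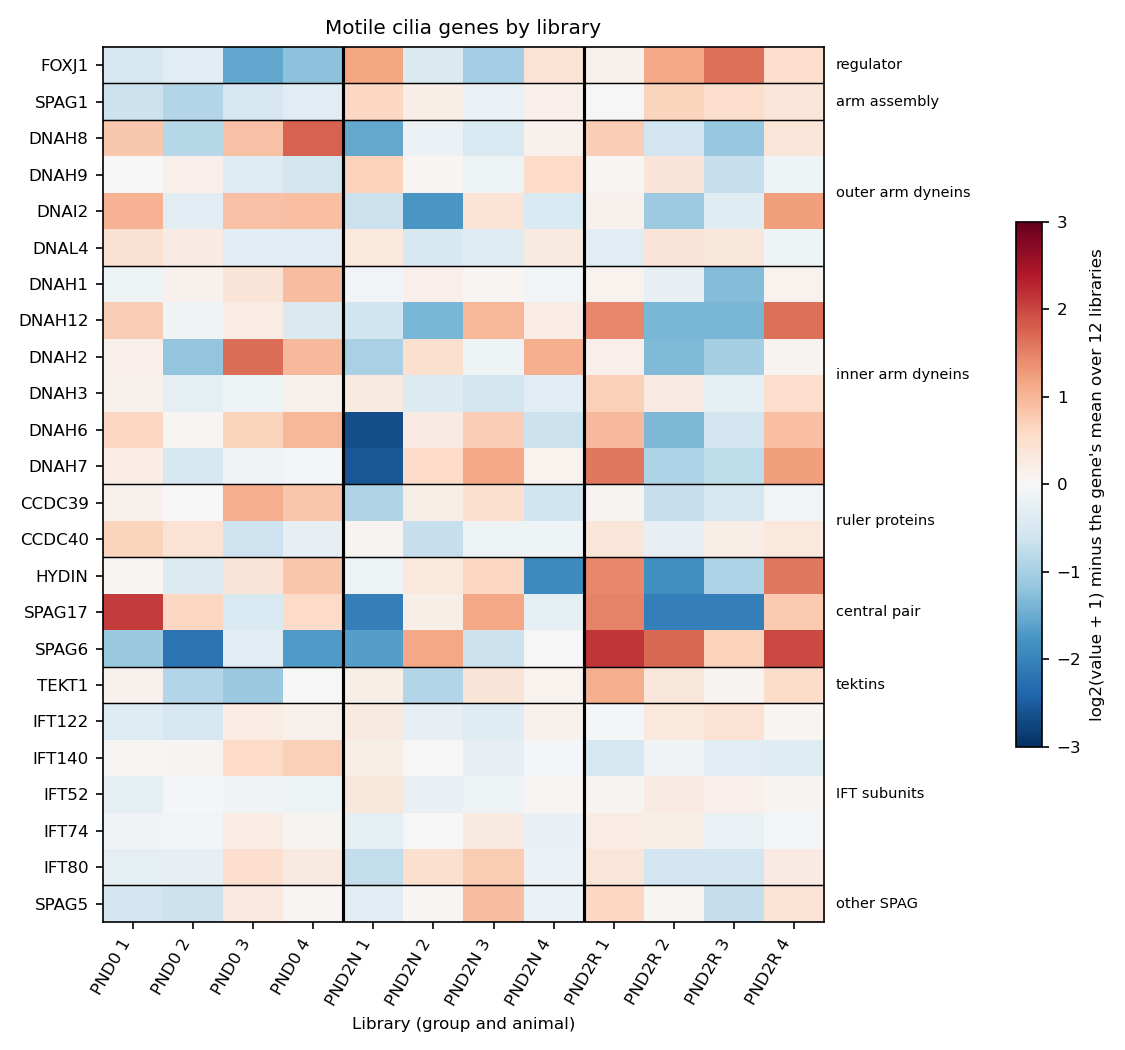
Motile cilia genes by library. Rows are the 24 genes found by symbol, ordered by role, columns are the 12 libraries (4 animals per group), and colour gives log2(value + 1) minus the gene's mean over the libraries, from blue (lower) to red (higher). SPAG6 is red in all 4 PND2R libraries, and DNAH12, DNAH7 and HYDIN are reddest in PND2R 1 and PND2R 4 and blue in PND2R 2 and PND2R 3.

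The motile cilia genes did not move as a block after birth. In replacer-fed gilts FOXJ1, SPAG6 and SPAG1 rose and IFT140 fell from birth, and the other 20 of 24 genes did not pass the test. In nursed gilts none of the 24 passed it. Change was tested with limma on log2(value + 1) over all 16862 genes past the limit on low values, and a gene was called at a Benjamini-Hochberg adjusted p under 0.05.

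In PND2R versus PND0, limma called 4 of 24 members, or 16.7%, where 15.0% of all genes tested were called. Members called higher numbered 3, against a background of 7.7% of all genes called higher, and 1 was called lower, against 7.31%. At an unadjusted p under 0.05 there were 6 of 24, the further ones being TEKT1 and CCDC39. For 5 of 24 members the libraries were fully separated between the 2 groups (the 4 called genes and IFT52), as they were for 28.3% of all genes. The log2 change was positive for 13 and negative for 11 of the 24, with a median of 0.04 beside -0.06 over all genes. A share of 4 in 24 is close to the background, so the count itself is no result about the set.

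In PND2N versus PND0 limma called 0 of 24, against 3.32% of all genes. SPAG1 alone was under 0.05 without adjustment, at a log2 change of 0.78. The changes were positive for 9 members and negative for 15, with a median of -0.15 beside -0.04 over all genes. With both day 2 groups pooled against PND0, limma called the same 4 genes as for PND2R, against 18.1% of all genes. Adding the 33 placeholder entries gave 2 of 57 called in PND2N (both higher), 10 of 57 in PND2R (9 higher) and 12 of 57 in the pooled comparison (9 higher).

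**Figure D2:**
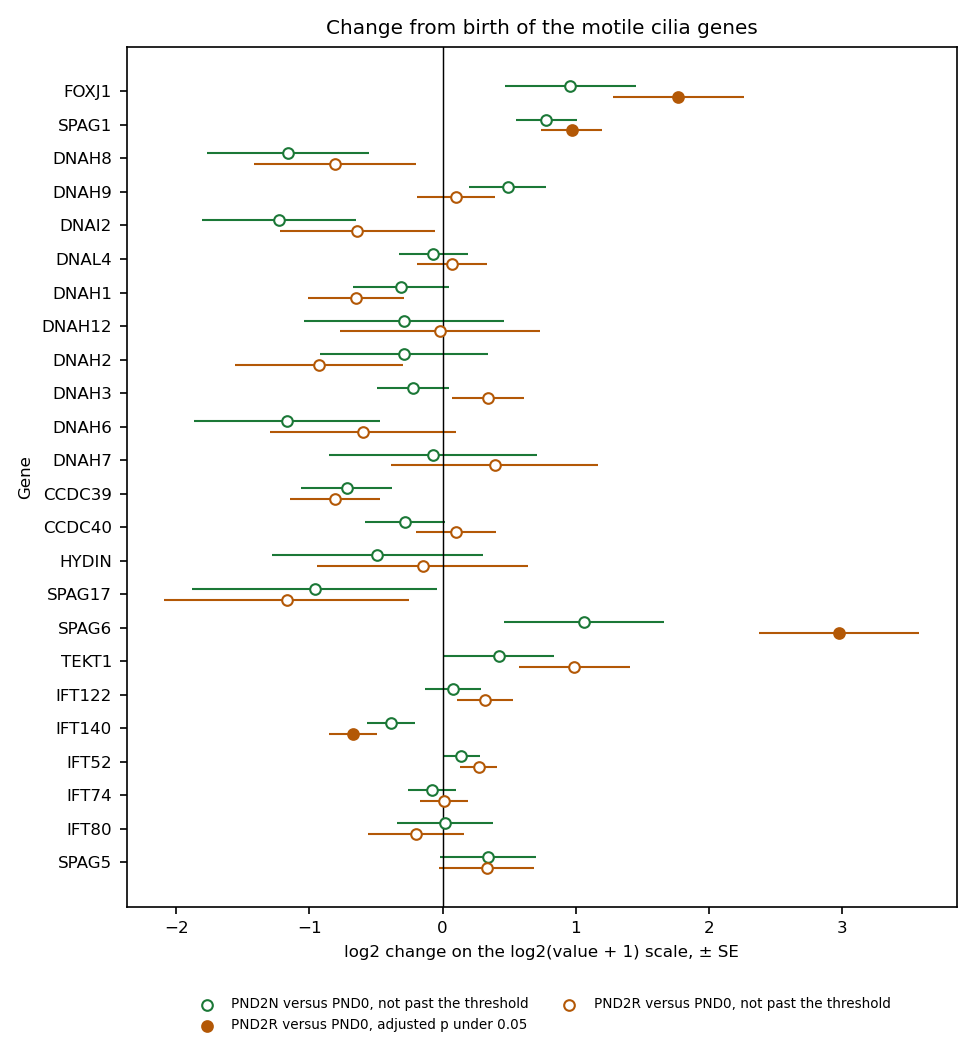
Change from birth of the 24 motile cilia genes, ordered by role. Each point is the log2 change on the log2(value + 1) scale with its SE (bars), for PND2N (green) and PND2R (orange) against the same 4 PND0 libraries, and filled points have a limma adjusted p under 0.05. FOXJ1, SPAG1, SPAG6 and IFT140 have filled PND2R points, and no PND2N point is filled.

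FOXJ1, the transcription factor that drives the motile cilium programme, rose in replacer-fed gilts. Its values were 316, 347, 149 and 187 in PND0 animals 1 to 4, then 1012, 330, 217 and 601 in PND2N, and 485, 990, 1383 and 634 in PND2R. All 4 PND2R libraries were above all 4 of PND0, whereas the PND2N libraries ranged from within the PND0 values to 1012. The mean was 250 ± 96.5 in PND0, 540.0 ± 354 in PND2N and 873 ± 401 in PND2R (SD, n = 4). The change from birth in PND2R was a log2 of 1.77 ± 0.49 (SE), or 3.42-fold, with a limma adjusted p of 0.0334. In PND2N it was 0.96 ± 0.49 with a limma adjusted p of 0.25, and over both day 2 groups it was 1.36 ± 0.42 with a limma adjusted p of 0.0443. The pooled call was lost in 12 of 21 alternatives, among them the fit without the 3 libraries of high DES, at a log2 change of 0.90 (limma adjusted p = 0.132).

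The FOXJ1 call in PND2R was lost without PND2N 1, PND2R 2 and PND2R 3, where the log2 change was 1.23 (limma adjusted p = 0.16), and it was also lost when PND0 3, PND0 4, PND2R 2 or PND2R 3 alone was left out, and with no filter on low values. The 2 lowest FOXJ1 values belonged to PND0 3 and PND0 4, in which the summed level of 14 epithelial markers was 40520 and 32000, against 131900 and 136300 in PND0 1 and PND0 2, 70890 to 121100 in nursed and 99890 to 123400 in replacer-fed gilts. Of these markers 1 of 14 rose in PND2R, or 7.14%, close to the 7.7% of all genes called higher, so this count is no result about epithelium. It was ST14, a membrane protease of epithelia, at a log2 change of 1.08 (limma adjusted p = 0.027). Without the 3 libraries the ST14 change was 0.91 (limma adjusted p = 0.182). The part of epithelial content in the FOXJ1 result was not tested.

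RFX2, a transcription factor that acts with FOXJ1 on cilium genes, was found as a placeholder entry. It was 88.5, 30.8, 107 and 46.0 in PND0, 11.3, 9.31, 31.1 and 28.2 in PND2N, and 13.2, 24.2, 31.4 and 11.8 in PND2R. All but 2 of the 8 day 2 libraries were below the whole PND0 group, those 2 being just above PND0 2, its lowest. Pooled over both day 2 groups RFX2 fell, at a log2 change of -1.69 ± 0.46 (limma adjusted p = 0.0295), while neither group alone passed (limma adjusted p = 0.0882 in PND2N and 0.0551 in PND2R). The pooled call was lost without PND0 1, PND0 3 or PND0 4, and after quantile normalization.

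Of 6 dynein arm assembly factors, SPAG1 and the placeholder entry ZMYND10 rose in PND2R, and DNAAF1, DNAAF2, DNAAF4 and LRRC6 did not pass the test in any comparison. The 2 of 6 are 33.3%, against 15.0% of all genes called and 7.7% called higher. SPAG1, a cytoplasmic factor needed before dynein arms can be mounted, was 353, 297, 387 and 443 in PND0, 845, 632, 478 and 606 in PND2N, and 552, 866, 792 and 703 in PND2R. It was the one gene of the 24 whose 8 day 2 libraries were all above the 4 libraries of birth, and 13.3% of all genes were fully separated in that comparison. The log2 change was 0.97 ± 0.23 in PND2R (1.96-fold, limma adjusted p = 0.0205) and 0.78 ± 0.23 in PND2N (1.71-fold, limma adjusted p = 0.0754). Pooled, it was 0.87 ± 0.20 (limma adjusted p = 0.0144), and 0.70 without the 3 libraries of high DES (limma adjusted p = 0.0507). The PND2R call was lost without PND2R 2, without PND2R 3 and without the 3 libraries of high DES, where the log2 change was 0.77 (limma adjusted p = 0.12).

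ZMYND10, a partner of LRRC6 in dynein assembly, was 43.7, 40.4, 26.3 and 29.5 in PND0, 47.2, 40.1, 66.2 and 64.0 in PND2N, and 138, 80.9, 52.6 and 119 in PND2R. Every PND2R library was above every PND0 library, and PND2R 1 and PND2R 4 were the highest of the 12. Its log2 change in PND2R was 1.39 ± 0.36 (2.63-fold, limma adjusted p = 0.0275). Without the 3 libraries of high DES it was 1.88 (limma adjusted p = 0.0406), and the call was lost without PND0 3, PND0 4, PND2R 2 or PND2R 4.

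**Figure D3:**
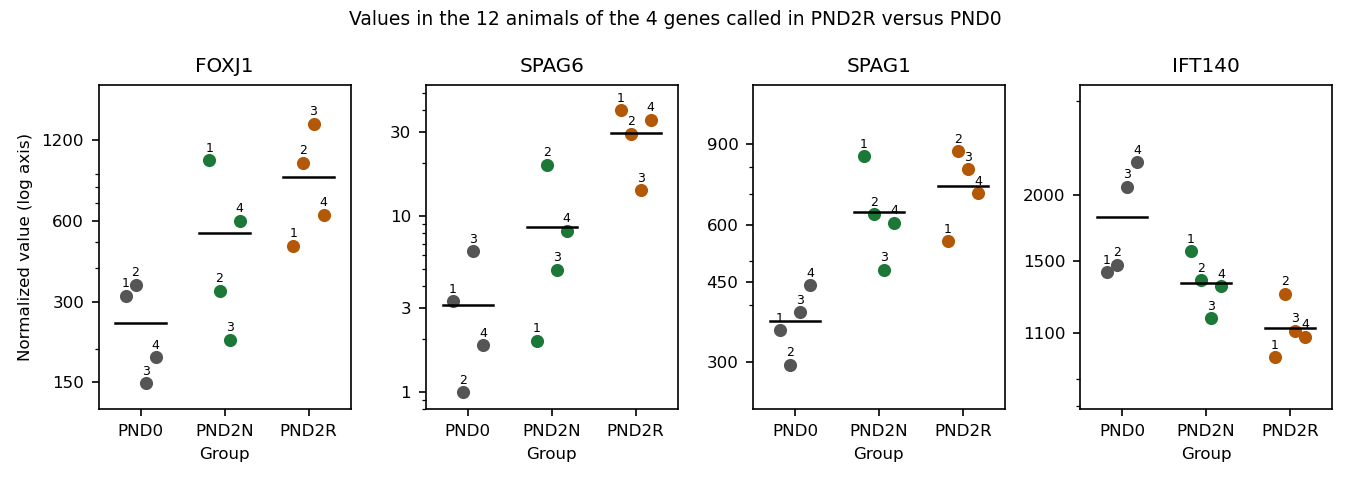
Values in every animal of the 4 genes called in PND2R versus PND0, each panel with its own log axis of normalized value. Numbers beside the points are the animals and black lines the group means (n = 4). The PND2R points lie above all PND0 points for FOXJ1, SPAG6 and SPAG1 and below all of them for IFT140.

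The outer arm dyneins, which supply most of the power of the beat, did not pass the test in any comparison for the 4 genes found by symbol. DNAI2, an intermediate chain, was 37.2, 13.7, 33.0 and 33.3 in PND0, 10.8, 4.49, 23.6 and 12.5 in PND2N, and 19.2, 7.61, 13.4 and 43.3 in PND2R. The groups overlapped, and its log2 change in PND2N, -1.23 ± 0.58, had a limma adjusted p of 0.218. DNAH9, a heavy chain, was at 211 to 348 in the newborn, 279 to 502 in the nursed and 192 to 406 in the replacer-fed gilts. DNAL4, a light chain, was at 1365 to 2379, 1250 to 2152 and 1399 to 2265 in the same order. DNAH8, a heavy chain best known from sperm, was at 12.2 to 81.0, 7.26 to 25.3 and 9.90 to 38.8. In each of the 3 the groups overlapped.

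Among the outer arm placeholder entries, DNAI1, the second intermediate chain, rose in PND2R. It was at 1, the lowest value in the table, in all 4 PND0 libraries, 3.23, 1, 1.81 and 1 in PND2N, and 6.66, 4.44, 2.40 and 6.44 in PND2R. Its libraries did not overlap between PND2R and PND0, and no fold is given against a group at the lowest value (limma adjusted p = 0.0183, and 0.037 without the 3 libraries of high DES). The call was lost without PND2R 2 (limma adjusted p = 0.0533). The entry overlaps an adropin-like entry on the same strand, at 9.55 to 31.4 in the 12 libraries. DNAH5, the other main outer arm heavy chain, spread widely without a call, from 3.54 in PND2R 2 to 140 in PND0 1.

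The 6 inner arm heavy chains found by symbol (DNAH1, DNAH2, DNAH3, DNAH6, DNAH7 and DNAH12), which shape the bend of the beat, held no call in the fit of all 12 libraries. DNAH3 was 346, 259, 285 and 344 in PND0, 377, 235, 213 and 250 in PND2N, and 514, 374, 260 and 455 in PND2R. DNAH7 was 88.6, 53.9, 70.6 and 73.7 in PND0, 12.1, 115, 172 and 82.0 in PND2N, and 228, 39.8, 44.1 and 182 in PND2R. For DNAH7 both the highest and the second highest value were in PND2R, and the other PND2R animals were below the whole PND0 group. Without the 3 libraries of high DES, DNAH7 was called higher in the pooled comparison, at a log2 change of 1.12 (limma adjusted p = 0.039). Those 3 libraries were lower for DNAH7 than every other library. Leaving them out therefore raises its change by itself, and no conclusion is drawn from that call. Its log2 change in PND2R was then 1.52 and was not called (limma adjusted p = 0.0664).

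DNAH6 had the same arrangement of high and low PND2R animals, at 198, 133, 203 and 254 in PND0, 19.5, 151, 213 and 81.4 in PND2N, and 252, 49.5, 85.1 and 238 in PND2R. DNAH1 spanned 75.7 to 161 at birth, 79.0 to 93.4 in nursed and 33.4 to 91.0 in replacer-fed gilts. DNAH2 and DNAH12 were near the bottom of the table, with 1 to 15.2 and 1 to 15.3 over the 12 libraries. The median log2 change of the 6 was -0.29 in PND2N and -0.31 in PND2R, and -0.22 and 0.50 without the 3 libraries of high DES, while the values of DNAH7 within the PND2N group alone differed by 14.2 times.

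The ruler proteins CCDC39 and CCDC40, which together set the spacing of inner arms and spokes along the doublet, held no call. CCDC39 was 1102, 1000, 2133 and 1791 in PND0, 538, 1142, 1406 and 669 in PND2N, and 1070, 622, 693 and 955 in PND2R. The 2 highest values were PND0 3 and PND0 4, and the log2 change was -0.72 ± 0.34 in PND2N and -0.81 ± 0.34 in PND2R (limma adjusted p = 0.226 and 0.11). CCDC40 spanned 294 to 715 at birth, 279 to 480 in nursed and 378 to 580 in replacer-fed gilts. The table has a second, placeholder entry named CCDC39 elsewhere on chromosome 13, at 1282 to 5189, and likewise second entries for DNAH12 and IFT80, so these 3 rows are uncertain as measures of their genes. The docking factor CCDC114 (placeholder) was 301 to 1660 over all libraries, its 2 highest values again in PND0 3 and PND0 4.

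Tektins, filament proteins inside the doublets, and radial spoke proteins held no call. TEKT1 was 29.8, 14.4, 12.2 and 27.1 in PND0, 31.2, 14.5, 36.0 and 29.3 in PND2N, and 59.3, 35.0, 29.1 and 40.8 in PND2R. Its PND2R values overlapped those of PND0 only through PND2R 3, and the log2 change was 0.99 ± 0.42 (limma adjusted p = 0.109). After quantile normalization it was 1.58, with a limma adjusted p of 0.0349. The placeholder entry TEKT2 was 14.7 to 31.7 in PND0 and 38.1 to 66.5 in PND2R without overlap, at a log2 change of 1.02 ± 0.35 (limma adjusted p = 0.0636). It lies inside EIF2C3 on the same strand. The spoke entries RSPH3, RSPH9 and RSPH14, all placeholders, had log2 changes in PND2R of -0.25, 0.50 and -0.50.

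The central pair genes gave the change of greatest size among the 24. SPAG6, an armadillo-repeat protein of the central pair apparatus, was 3.29, 1, 6.33 and 1.85 in PND0, 1.96, 19.7, 4.98 and 8.30 in PND2N, and 40.2, 29.5, 14.1 and 35.5 in PND2R. All 4 PND2R libraries were above all 4 PND0 libraries, and only PND2N 2 reached the PND2R range. Means were 3.12 ± 2.34, 8.73 ± 7.75 and 29.8 ± 11.4 (SD, n = 4). The log2 change in PND2R was 2.98 ± 0.60 (limma adjusted p = 0.0133), and it was called in each of 22 alternative settings, at 2.07 to 3.53 (limma adjusted p from 0.00398 to 0.0438). Without the 3 libraries of high DES it was 3.41 (limma adjusted p = 0.037). In PND2N it was 1.06 ± 0.60 (limma adjusted p = 0.29).

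SPAG6 (chromosome 10, 60167657 to 60321692 in Sscrofa10.2, minus strand, whole interval of the table) contains a COMMD3-like entry on the same strand, which had 1232 to 1397 in PND0 and 2062 to 2557 in PND2R. The share of that transcript in the SPAG6 values was not tested. HYDIN and SPAG17, the other central pair genes, were not called. HYDIN, a very large central pair protein, was 29.2, 20.7, 36.8 and 50.8 in PND0, 25.1, 35.4, 44.0 and 6.69 in PND2N, and 77.4, 7.14, 14.4 and 85.9 in PND2R. SPAG17 was 34.6, 11.8, 5.01 and 11.5 in PND0, 1, 8.38, 17.7 and 5.77 in PND2N, and 22.2, 1, 1 and 13.4 in PND2R. HYDIN was high in PND2R 1 and PND2R 4 and low in the other PND2R animals, and SPAG17 sat at the lowest value of the table in the 3 libraries of high DES. Their log2 changes in PND2R were -0.15 ± 0.79 and -1.17 ± 0.92, and turned to 1.29 and 0.43 without those 3 libraries (limma adjusted p = 0.295 and 0.756).

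The IFT subunits were the largest family once placeholder entries were counted. In PND2R versus PND0, 4 of 15 IFT entries rose (IFT20, IFT22, IFT46 and IFT57) and 1 fell (IFT140). These 5 of 15 are 33.3%, the same share as among the assembly factors and the central pair genes, against 15.0% of all genes. In PND2N, IFT22 and IFT57 rose, or 13.3% against 3.32%. All 4 that rose belong to the IFT-B complex, which carries cargo towards the tip, and IFT140 belongs to IFT-A, which works in the return. IFT52, IFT74, IFT80, IFT81, IFT88, IFT27 and IFT172 (all IFT-B) and IFT43 and IFT122 (IFT-A) were not called in PND2R, so the calls did not take in either complex as a whole.

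IFT140 was 1428, 1476, 2069 and 2299 in PND0, 1564, 1382, 1171 and 1346 in PND2N, and 989, 1303, 1110 and 1081 in PND2R. All 4 PND2R values were below all PND0 values, while PND2N 1 lay among the PND0 values and PND2N 2, 3 and 4 lay below them. The mean went from 1818 ± 433 to 1121 ± 132 (SD, n = 4), a log2 change of -0.67 ± 0.18 (0.627-fold, limma adjusted p = 0.0323). Without the 3 libraries of high DES the log2 change was -0.78 and the limma adjusted p 0.102. The call was also lost without PND0 3, without PND0 4, without any one PND2R library, and in a fit that left PND2N out. IFT140 (chromosome 3, 41152445 to 41210758, plus strand) overlaps TMEM204 on the opposite strand, at 1430 to 1810 in PND0 and 892 to 1726 in PND2R, and whether counting used strand is not given in the sources used here.

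IFT22, a small GTPase-like subunit, was 1234, 1267, 1083 and 948 in PND0, 1774, 1513, 1773 and 1791 in PND2N, and 1834, 2092, 1982 and 1856 in PND2R. The 3 groups did not overlap at all, with PND0 lowest and PND2R highest. Its log2 change was 0.60 ± 0.14 in PND2N (1.52-fold, limma adjusted p = 0.0404) and 0.78 ± 0.14 in PND2R (1.72-fold, limma adjusted p = 0.00865). IFT57 was 2164, 2611, 2419 and 2040 in PND0, 3945, 3674, 2847 and 4507 in PND2N, and 3553, 4602, 4587 and 3659 in PND2R. Every day 2 value of IFT57 was above every value at birth. The log2 change was 0.68 ± 0.16 in PND2N (limma adjusted p = 0.046) and 0.82 ± 0.16 in PND2R (1.77-fold, limma adjusted p = 0.0129). Both PND2N calls were lost in 14 of 22 alternatives, among them nearly every fit with a library left out.

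IFT46 was 2723, 3004, 3568 and 3471 in PND0, 4306, 4277, 4015 and 5041 in PND2N, and 4650, 4760, 4214 and 4591 in PND2R. All 8 day 2 values were above those of birth, with a log2 change of 0.52 ± 0.13 in PND2R (limma adjusted p = 0.024) and 0.47 ± 0.13 in PND2N (limma adjusted p = 0.0637). The PND2R call of IFT46 was lost without PND0 1, PND2R 2 or PND2R 3. IFT20, which also works at the Golgi, was 859, 1011, 558 and 545 in PND0, 1757, 961, 957 and 1317 in PND2N, and 1114, 1732, 1806 and 1248 in PND2R. Its PND2R values were all above PND0 (log2 change 1.01 ± 0.27, limma adjusted p = 0.0317). The lowest values were again PND0 3 and PND0 4, and the call was lost without either, without PND2R 2 or PND2R 3, and with no filter. IFT20 lies inside TMEM199 on the opposite strand, which had 1057 to 1484 in PND0 and 1936 to 4184 in PND2R. Without the 3 libraries of high DES none of these 4 rises was called in PND2R, at log2 changes of 0.54 to 0.72.

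IFT172, the largest IFT-B subunit, was 4349, 3995, 5069 and 5062 in PND0, 3764, 3641, 3649 and 3477 in PND2N, and 3269, 3894, 3563 and 3600 in PND2R. All 8 day 2 values were below all 4 at birth, and it fell in the pooled comparison (log2 change -0.35 ± 0.10, limma adjusted p = 0.0378). That call was lost without PND0 1, PND0 3 or PND0 4 and under several other omissions. Of the IFT genes found by symbol that were not called, IFT52 was 2207 to 2575 in PND0 and 2783 to 3137 in PND2R, without overlap (log2 change 0.27 ± 0.14, limma adjusted p = 0.171). IFT122 spanned 1555 to 2592 at birth, 1725 to 2664 in nursed and 2126 to 2995 in replacer-fed gilts. IFT74 stayed within 631 to 924 and IFT80 within 214 to 608 over all 12 libraries.

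**Figure D4:**
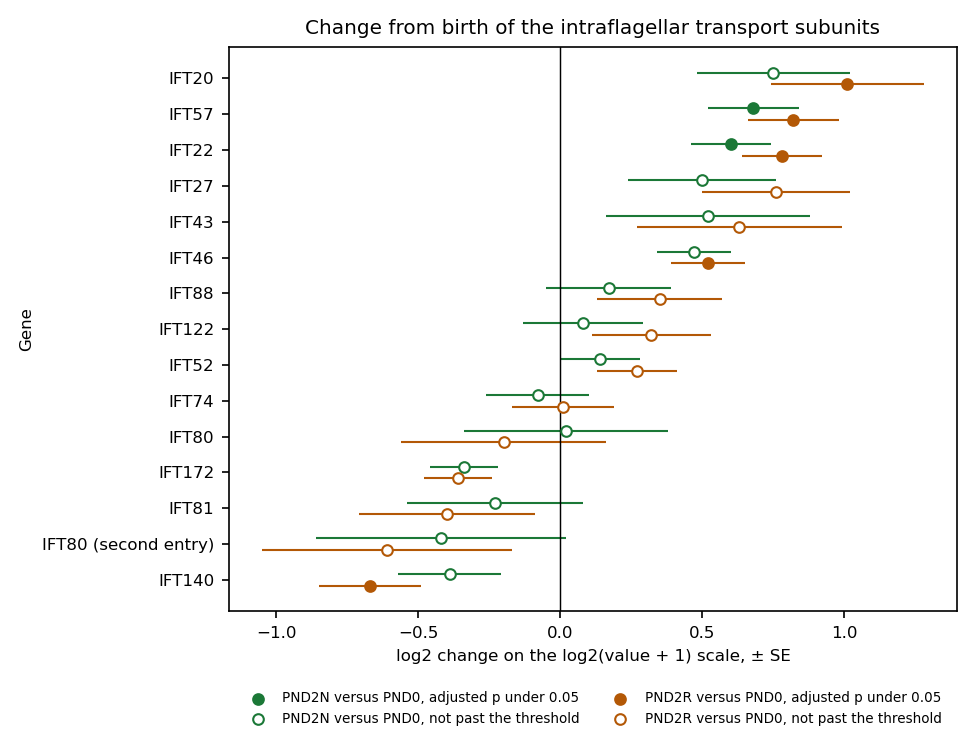
Change from birth of 15 IFT entries, found by symbol or as placeholders and ordered by the change in PND2R. Points are log2 changes with SE (bars) for PND2N (green) and PND2R (orange) against the same PND0 libraries, filled where the limma adjusted p was under 0.05. IFT20, IFT57, IFT22 and IFT46 have filled PND2R points above 0 and IFT140 one below 0.

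Some members meet the rule by name only. SPAG5 is a protein of the mitotic spindle, and spanned 343 to 660 at birth, 433 to 1029 in nursed and 332 to 835 in replacer-fed gilts without a call. SPAG9 (placeholder), a scaffold protein of kinase signalling, was 372 to 633 in PND0 but 20.5, 257, 420 and 141 in PND2N and 361, 36.3, 43.9 and 308 in PND2R. Its lowest values were those of the 3 libraries of high DES, and its log2 change in PND2R, -2.16 ± 0.93, went to -0.65 without them. CAPS, a calcium-binding protein of ciliated cells, was 95.9 to 124 in PND0 and 141 to 253 in PND2R without overlap, and was not called (limma adjusted p = 0.183). It overlaps RANBP3 on the opposite strand. TPPP3, a tubulin-binding protein, spanned 818 to 1437 at birth, 1081 to 1677 in nursed and 993 to 2052 in replacer-fed gilts without a call.

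Between the feeds, limma called 0 of 24 members in PND2N versus PND2R, against 0.0119% of all genes, and at an unadjusted p under 0.05 there was 1, SPAG6. Its PND2N values (1.96 to 19.7) overlapped those of PND2R (14.1 to 40.2), and the log2 difference, PND2N minus PND2R, was -1.92 ± 0.60 (limma adjusted p = 1.0, and 0.355 to 1.0 over the alternatives). The next smallest p-values were those of DNAH3, at -0.56 ± 0.27, and FOXJ1, at -0.82 ± 0.49. PND2N was the lower group for 16 of 24 members, with a median log2 difference of -0.22 beside 0.03 over all genes. A gene called in PND2R and not in PND2N is therefore not shown to differ between the feeds.

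By the highest values, PND2R 1 and PND2R 4 stood out among the 24 genes found by symbol. PND2R 1 held 1 of the 2 highest of the 12 values for 10 of 24 members and PND2R 4 for 7 of 24, whereas they did so for 9.09% and 4.55% of all genes. The other 10 libraries held such a place for 0 to 6 of the 24. This count was made after the values were seen and is given as a description. In PND2R 2 and PND2R 3 such places numbered 4 and 2. With the placeholder entries counted (57 in all) the order changed, with 19 places in PND0 3, 15 in PND2R 1, 13 in PND0 4, 12 each in PND2N 1 and PND2R 3, and 11 in PND2R 4. Of 68 motile cilium genes outside the rule, the highest shares with such a place were 26.5% in both PND0 4 and PND2R 1 and 25.0% in both PND2N 3 and PND2R 4. Multiciliated cell markers outside the rule were listed alongside. SNTN, a protein of the ciliary tip, was 50.8 in PND2R 1 and 35.1 in PND2R 4 and at most 4.26 in the other 10 libraries, and FAM183A was 51.7 and 59.3 there and 95.9 in PND2R 3. DYDC2, at 7.75 and 4.08, and FOXN4, at 2.77 and 2.62, were also highest in PND2R 1 and PND2R 4, at low values. Other markers of the list were placed otherwise. CDHR3 was 3.32 and 4.10 in PND2R 1 and PND2R 4 against 10.5 and 11.4 in PND2R 2 and PND2R 3, and OMG was at 1 in PND2R 1 and PND2R 4. CCDC78 was highest in PND0 4, and MYB and CCDC67 were highest in PND2N 3.

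CCNO and GMNC, which act early in the multiciliated fate, were at the bottom of the table. CCNO, a cyclin needed to multiply centrioles, was at 1 in 9 of 12 libraries and at most 2.45, and GMNC, which starts the multiciliated fate, was at 1 in 5 and at most 7.06. FOXN4, another regulator of these cells, was at 1 in 8 of 12 libraries and at most 2.77. MYB, at up to 187, CCDC67, at 12.7 to 64.7, and CCDC78, at 25.6 to 155, were above the lowest value in every library. Limma called none of the 11 tested markers of this list in any comparison with all libraries in. Without the 3 libraries of high DES it called SNTN and FAM183A higher in PND2R than at birth, beside 108 of all 16862 genes. SNTN was at 1 in PND2R 2 and PND2R 3, both left out there, so its call follows from the omission. FAM183A was 1.49 and 95.9 in those 2 animals. In the same fit SNTN was also called higher in the pooled comparison (limma adjusted p = 0.0106), beside 634 of all genes. Between the feeds, 1 marker was then called lower in PND2N, beside 3 of all genes. The summed level of the list was carried by 1 placeholder entry named STOML3 (240 to 5161). Without it the sum of the other 11 matched markers spanned 213 to 260 at birth, 105 to 309 in nursed and 119 to 317 in replacer-fed gilts. Whether multiciliated cells were present in these uteri was not tested.

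Other cilium genes were taken from lists outside the rule. Of 68 further motile cilium genes, 9 rose and 2 fell in PND2R, 1 rose in PND2N and 0 were called between the feeds, with a median log2 change in PND2R of 0.20 beside -0.06 over all genes. These are 16.2% in PND2R and 1.47% in PND2N, against 15.0% and 3.32% of all genes. SPA17, a protein of sperm and cilia, rose by a log2 of 1.83 ± 0.32 in PND2R and 1.61 ± 0.32 in PND2N (limma adjusted p = 0.00857 and 0.0269). MORN2 and MORN3 rose by a log2 of 1.10 and 1.37 in PND2R, and GAS8, a nexin link protein, fell by a log2 of 0.96 (limma adjusted p = 0.0128, 0.0209 and 0.0196). Without the 3 libraries of high DES, 2 of the 68 rose and 0 fell in PND2R, where 108 of all 16862 genes rose and 146 fell.

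Of 51 primary cilium genes, 6 rose and 6 fell in PND2R, with a median log2 change of -0.08, and 2 rose in PND2N. These are 23.5% in PND2R and 3.92% in PND2N, against the same 15.0% and 3.32%. MKKS, a chaperonin-like protein of BBSome assembly, and ARL3, a small GTPase of ciliary cargo release, rose by a log2 of 1.36 and 1.32 in PND2R, and BBS1, of the cargo-sorting BBSome, fell by 1.89 on the log2 scale (limma adjusted p = 0.007, 0.0109 and 0.0282). Of 19 ciliary transport motors and IFT subunits with other names, 6 rose and 2 fell in PND2R, or 42.1% against 15.0% of all genes. CLUAP1, also called IFT38, rose by a log2 of 0.98 and TRAF3IP1, also called IFT54, fell by 1.36 on the log2 scale (limma adjusted p = 0.0236 and 0.0213), so subunits of IFT-B moved in both directions. Without the 3 libraries none of the 51 and none of the 19 was called in PND2R. Of all 16862 genes, 108 rose and 146 fell in that fit, so the lack of calls is no result about either list.

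Of 18 genes of centriole amplification and cell division, 4 rose in PND2N and 6 in PND2R and 0 fell, with a median log2 change in PND2R of 0.70 beside -0.06 over all genes. These are 22.2% in PND2N and 33.3% in PND2R, against 3.32% and 15.0% of all genes. AURKA and CCNB2, both of mitosis, rose by a log2 of 1.30 ± 0.18 and 1.46 ± 0.24 in PND2R (limma adjusted p = 0.00465 and 0.00724) and were called without the 3 libraries too (limma adjusted p = 0.0307 and 0.0272). CETN2, a centriole protein, rose by a log2 of 0.94 ± 0.17 (limma adjusted p = 0.0107, and 0.0668 without the 3 libraries).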

How the data were processed

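RNA of 12 uteri was sequenced, and nothing in the labels ties more than 1 library to an animal, so p-values measure the spread between these samples. Per the submitters' processing notes, bcl2fastq was used and Sscrofa10.2 is the build. How reads were aligned, counted (by strand or not) and normalized is not given in the sources used here. The values the authors deposited are signal, normalized per gene and library on a linear scale, and none is below 1. Read depth is therefore unknown and no interval or count test was used. Whether values are per length is not given either, so no result rests on comparing levels between genes. Mean levels served only to choose genes to print, and a summed marker level is carried mostly by its highest genes. Placeholder rows were named by gene ID from an NCBI gene table (Sscrofa11.1, names only), which lacks 4 of the 24 members (CCDC39, DNAH3, DNAH12 and IFT80).

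Values were taken as log2(value + 1), which understates changes of low genes. All 12 libraries entered 1 limma 3.58.1 fit (R 4.3.3, statmod 1.5.0, trended, robust empirical Bayes, two-sided, no covariate), with Benjamini-Hochberg adjustment over 16862 genes. The code was checked on simulated data with independent noise. Those data held no shift shared by several libraries, so the check does not cover the 3 libraries of high DES. Genes given with values are the regulators, the 2 members of each role with the highest mean, members called in any comparison and the 3 smallest p-values of each, and others were chosen after their values were seen. Of other lists, up to 4 genes with the smallest p were eligible. Members and lists were chosen with earlier results of these data known. Alternatives were other added values (0.1 and 5), filters, scalings (TMM and quantile), moderation, library weights, libraries and readings of the rule. Figures were drawn with matplotlib 3.10.9 and tables made with pandas 2.3.3 and numpy 2.4.6 (Python 3.11.15).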

Additional observations from a re-analysis of the deposited data

How the results depend on the processing

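No member was called in PND2N versus PND0 or PND2N versus PND2R under any other setting of values, scaling or libraries, leave-one-out fits included (0 to 0). In PND2R versus PND0 the 4 calls became 1 without PND2N 1, PND2R 2 and PND2R 3 (SPAG6), and 1 to 4 with 1 library left out, the lowest without PND2R 2 or without PND2R 3. In the pooled day 2 comparison the 4 calls became 2 without those 3 libraries. These were SPAG6 and DNAH7, of which DNAH7 was not among the 4, and SPAG1 was lost (limma adjusted p = 0.0507). The 3 libraries held the lowest DNAH7 values, so leaving them out raises the DNAH7 change by itself. The 4 pooled calls became 2 with plain empirical Bayes, and 1 to 5 with 1 library left out, the lowest without PND0 4. With placeholder entries added, the counts were 2 in PND2N, 10 in PND2R and 12 pooled, because more entries are counted. No log2 change of a called member turned its direction. Of the 20 members not called in PND2R, 11 turned under at least 1 alternative. With the 3 libraries left out HYDIN went from -0.15 to 1.29, SPAG17 from -1.17 to 0.43 and the median of the 6 inner arm genes from -0.31 to 0.50. The cause of the lost calls was not tested.

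Over all genes, the 560 calls in PND2N became 859 with no filter, 275 without the 3 libraries, 7 with only the groups compared and 26 to 645 with 1 library left out. The 2531 calls in PND2R became 254 without the 3 libraries and 549 to 4101 with 1 left out. The 3046 pooled calls became 1418 and 1032 to 3834. The 2 calls between the feeds became 6 with library weights, 5 without the 3 libraries, 1 with only the groups compared and 1 to 3 with 1 left out. No paired analysis was possible because the numbers in the labels name libraries and pair no animals. The pooled comparison has no fit of only the groups compared, since it uses all 3. Depth is unknown, so changes near the lowest value (DNAI1, DNAH2, DNAH12 and SPAG17) were measured least firmly.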

Other observations

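The difference between the 3 libraries of high DES and the other 5 day 2 libraries went with the length of the interval that the table gives for a gene. Such an interval can cover only part of a gene, as CCDC39, DNAH12 and IFT80 have second entries. Over the 24 members, Spearman's rho between the interval length in the table and this log2 difference was -0.55 (Pearson's r = -0.61), and over all 16862 genes tested it was -0.28, all across genes that share the same libraries and are not independent. FOXJ1, the shortest of the 24 at 3.11 kb, was 2.64 times higher in the 3 libraries, and DNAH7, at 243 kb, was at 0.196 of the level of the other 5. The 7 members over 100000 bp had a median log2 difference of -1.2 beside -0.34 for all 1821 genes of such length. DNAH3, at 233 kb, did not follow, with a log2 difference of 0.09. Among placeholder entries of 129 kb, IFT88 did not follow either (0.59), whereas DNAH5 did (-3.0). FOXA2, a transcription factor of uterine glands, was 264 in PND2R 1 and 240 in PND2R 4 against 1.52 to 89.4 in the other 10 libraries, a gene chosen after its values were seen. No cause of either pattern was tested.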
